A study of Mus musculus with 28 samples.

Results

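The killer cell and C-type lectin receptor genes of the mouse were followed here through 5 sets of H3K9me2 domains. Members were all protein-coding genes of GENCODE M21 on chromosomes 1 to 19 and X whose symbol starts with Klr and a letter from a to k, or with Clec and a digit. This gave 56 genes of 21755, of which 26 were Klr and 30 were Clec. Another 7 matching symbols were not annotated as protein-coding and were left out, among them Clec7a (Dectin-1), annotated as a polymorphic pseudogene, whose start lay in a domain in all 5 sets.

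Killer cell receptors are membrane proteins with a lectin-like fold that natural killer cells and some T cells use to read the state of other cells. Some recruit phosphatases and hold the cell back, whereas others pair with adaptors and activate it. Most Clec genes encode related receptors of dendritic cells, macrophages, platelets or endothelium that recognise sugars, dead cells or microbes. Many of these genes sit side by side in the natural killer gene complex of chromosome 6, where the Ly49 genes (symbol Klra) have been copied several times. The number of Ly49 genes differs between inbred strains, including C57BL/6 and 129. H3K9me2 is a mark of repressed chromatin made by EHMT2 with its partner EHMT1, and it often covers long stretches of the genome. Embryonic stem cells are not immune cells, and levels of the receptor transcripts were not analysed here.

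H3K9me2 was immunoprecipitated from native chromatin of small cell numbers (ULI-NChIP) in 28 libraries from the EHMT2-dTAG-mcherry line of BL6/129 hybrid mESCs, in which endogenous EHMT2 carries a degron tag. Cells with a MERVL-GFP reporter were kept for 72 h in DMSO, the solvent, or in dTAG-13, which removes the tagged protein. Sorting separated mESCs, without GFP, from GFP-positive 2CLCs, a rare state that resembles the 2-cell embryo. Each of these 4 conditions (mESC DMSO, mESC dTAG, 2CLC DMSO and 2CLC dTAG) had 3 immunoprecipitation and 3 input libraries, and unsorted mESCs after 24 h in DMSO had 2 of each. All groups carried the tagged allele in serum and LIF on fibroblast feeders, and the sorted replicates were separate experiments with 1 clone. TTNBP, an agonist of retinoic acid receptors, was given to 2 replicates that the labels do not identify, while the methods name it for the sorted cultures without that limit.

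Each sorted condition is represented by a single list of domains with no signal values, so no replicate error exists for any value and no test was made. The depth of the libraries is unknown, and the level of EHMT2 could not be checked in these lists. The fifth list names neither cell state nor treatment and is called the unnamed set. The unnamed set may stem from the unsorted DMSO mESCs, in which the authors also called domains, but its name does not say so. Its values are given beside the others and enter no comparison between conditions. A member was counted as inside when its start, the most 5′ annotated base of the gene, lay in a domain. A start that enters or leaves a domain is not a measured gain or loss of the mark. Domains were called on bins of 5 kb, so a distance to a boundary below 5 kb is less than 1 bin.

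Most member starts lay inside H3K9me2 domains in every set, but this rests on the largest cluster in 2CLC DMSO, where 10 of the other 22 (45.5%) were inside. In mESCs the counts were 46 of 56 (82.1%) with DMSO and 47 (83.9%) with dTAG. In 2CLCs they were 41 (73.2%) with DMSO and 44 (78.6%) with dTAG. Of all protein-coding starts, 22.3, 23.6, 23.2 and 26.5% lay inside in the order used for every run of 4 values below, namely mESC DMSO, then mESC dTAG, then 2CLC DMSO and last 2CLC dTAG. The unnamed set held 46 members (82.1%), against 30.0% of all starts. These starts are not separate observations, since they shared 12, 10, 9 and 11 domains in the 4 sorted sets. A total of 36 members were inside in all 4 sorted sets (15.1% of all genes), 6 were inside in none (65.8%), and 14 differed (19.1%).

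**Figure D1:**
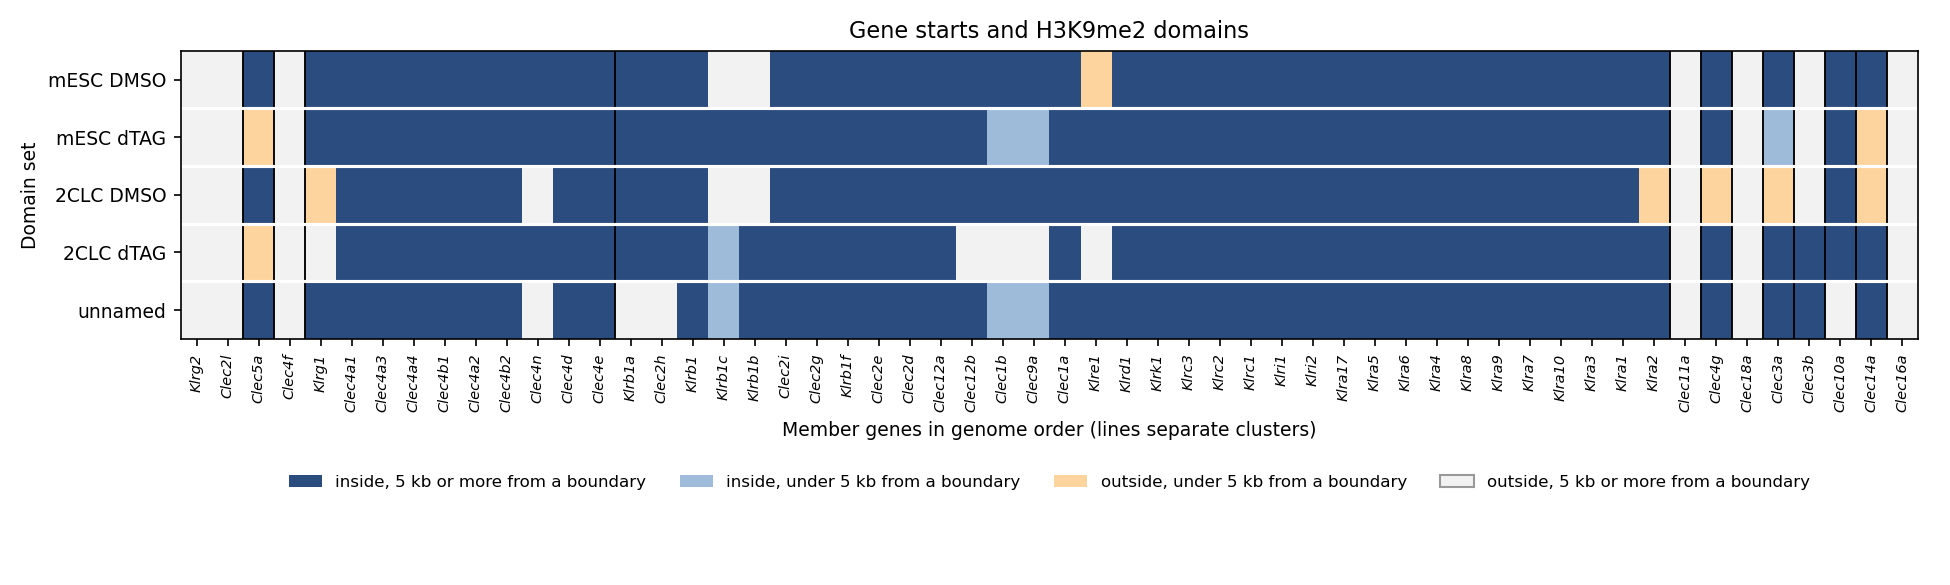
State of the 56 member starts (columns, in genome order, with lines between clusters) in the 5 domain sets, coloured by inside or outside and by whether the nearest boundary is under 5 kb away. The long dark stretch is shared by all sets, and the state differs among the sorted sets for 14 members, several of them under 5 kb from a boundary.

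The 56 genes formed 13 clusters when neighbours up to 1 Mb apart were joined. The largest, from Klrb1a to Klra2 at chr6:128609227-131247362 (mm10), held 34 members. A second, from Klrg1 to Clec4e at chr6:122270596-123289870, held 10. A pair, Klrg2 and Clec2l, lay at chr6:38625693-38680864, and 10 members stood alone. Of the 46 members in clusters, 41, 44, 39 and 39 were inside. Of the 10 that stood alone, 5, 3, 2 and 5 were inside.

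The promoters show how the members differ in sequence, and those printed are from genes whose domain state is described below. Each is the RefSeq stretch (GRCm38.p6, gene strand, 5′ to 3′) from 250 bases before to 50 after the transcript start, with CG dinucleotides in capitals. Klrb1b (chr6:128826266-128826565, minus strand) and Klrb1c (chr6:128788592-128788891, minus strand) entered domains in both cell states after depletion. The RefSeq start of Klrb1c is 574 bases from the GENCODE start used for its state. Clec5a (chr6:40585756-40586055, minus strand) left them in both.
Klrb1b: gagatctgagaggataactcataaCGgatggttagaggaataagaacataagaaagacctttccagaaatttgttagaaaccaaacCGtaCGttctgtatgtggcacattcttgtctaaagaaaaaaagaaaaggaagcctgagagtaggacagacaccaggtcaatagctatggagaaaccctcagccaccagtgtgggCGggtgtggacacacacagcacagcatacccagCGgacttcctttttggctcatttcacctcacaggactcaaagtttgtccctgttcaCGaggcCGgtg
Klrb1c: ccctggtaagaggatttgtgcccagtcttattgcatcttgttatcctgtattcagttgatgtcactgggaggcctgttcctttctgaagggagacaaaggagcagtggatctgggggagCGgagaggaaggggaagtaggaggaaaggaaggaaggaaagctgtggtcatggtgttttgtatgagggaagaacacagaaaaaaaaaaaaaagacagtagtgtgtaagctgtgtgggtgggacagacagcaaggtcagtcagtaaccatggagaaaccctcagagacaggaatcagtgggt
Clec5a: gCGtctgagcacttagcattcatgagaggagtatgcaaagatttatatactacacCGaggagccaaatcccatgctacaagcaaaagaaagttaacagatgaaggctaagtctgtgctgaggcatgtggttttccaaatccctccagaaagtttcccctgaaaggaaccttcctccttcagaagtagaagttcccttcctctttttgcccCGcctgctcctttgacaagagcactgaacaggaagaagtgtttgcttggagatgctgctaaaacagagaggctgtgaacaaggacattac

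Klra4 (chr6:130067222-130067521, minus strand) and Klra8 (chr6:130129849-130130148, minus strand) stayed inside in all 5 sets. They are shown because they were the most alike of the 55 pairs of Ly49 promoters, at 86.1% identity over the window.
Klra4: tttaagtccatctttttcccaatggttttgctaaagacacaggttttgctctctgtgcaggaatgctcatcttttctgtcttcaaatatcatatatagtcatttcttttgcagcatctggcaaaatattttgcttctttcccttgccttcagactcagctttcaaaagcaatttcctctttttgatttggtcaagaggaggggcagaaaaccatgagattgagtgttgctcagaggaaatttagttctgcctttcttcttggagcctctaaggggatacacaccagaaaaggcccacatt
Klra8: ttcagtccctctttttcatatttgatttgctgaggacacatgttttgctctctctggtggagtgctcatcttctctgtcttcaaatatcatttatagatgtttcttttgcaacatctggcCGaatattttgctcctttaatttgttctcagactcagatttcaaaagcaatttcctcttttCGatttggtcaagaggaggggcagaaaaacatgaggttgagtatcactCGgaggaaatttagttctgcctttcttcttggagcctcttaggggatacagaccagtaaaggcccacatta

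Clec2l (chr6:38662819-38663118, plus strand) was outside in all 5 sets and had the most CG of any member promoter, 29.
Clec2l: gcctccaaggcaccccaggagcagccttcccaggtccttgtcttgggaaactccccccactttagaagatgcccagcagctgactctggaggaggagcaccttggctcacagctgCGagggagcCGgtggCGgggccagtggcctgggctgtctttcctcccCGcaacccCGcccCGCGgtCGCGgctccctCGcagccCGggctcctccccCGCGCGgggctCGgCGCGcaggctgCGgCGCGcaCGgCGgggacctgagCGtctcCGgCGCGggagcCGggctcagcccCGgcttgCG

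RefSeq promoters were matched for 47 of the 56 members. Of these, 38 had a RefSeq start within 100 bases of the GENCODE start used for the domain state. The largest offset was 16262 bases, for Clec4a2. Those not matched were Clec10a, Klrg1, Clec4a4, Clec4n, Clec1a, Klrd1, Klri2, Clec3a and Clec3b. Member promoters were poor in CG, which reads the same on both strands. Their median was 3 CG in 300 bases, against 14 over 16433 protein-coding genes. At least 10 CG were found in 3 of 47 member promoters (6.38%) and in 59.5% of all promoters. The 3 were Clec2l, Clec16a and Klrg2, none of which was in a domain in any sorted set. The median was 2 in the 31 matched members inside in all 4 sets, 3 in the 10 that differed, and 8.5 in the 6 inside in none. Low CG was not particular to these receptors, as all 2412 matched genes inside in all 4 sets also had a median of 2, and those inside in none had 19. Over the whole 300-base windows, identity had a median of 51.5% for the Ly49 pairs (43.0 to 86.1%). For the 10 Klrb1 pairs the median was 46.1% (43.6 to 69.4%), and the highest value was that of Klrb1a with Klrb1c. The windows are set by the RefSeq start, so like sequence at another offset lowers these values, and they do not measure divergence.

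**Figure D2:**
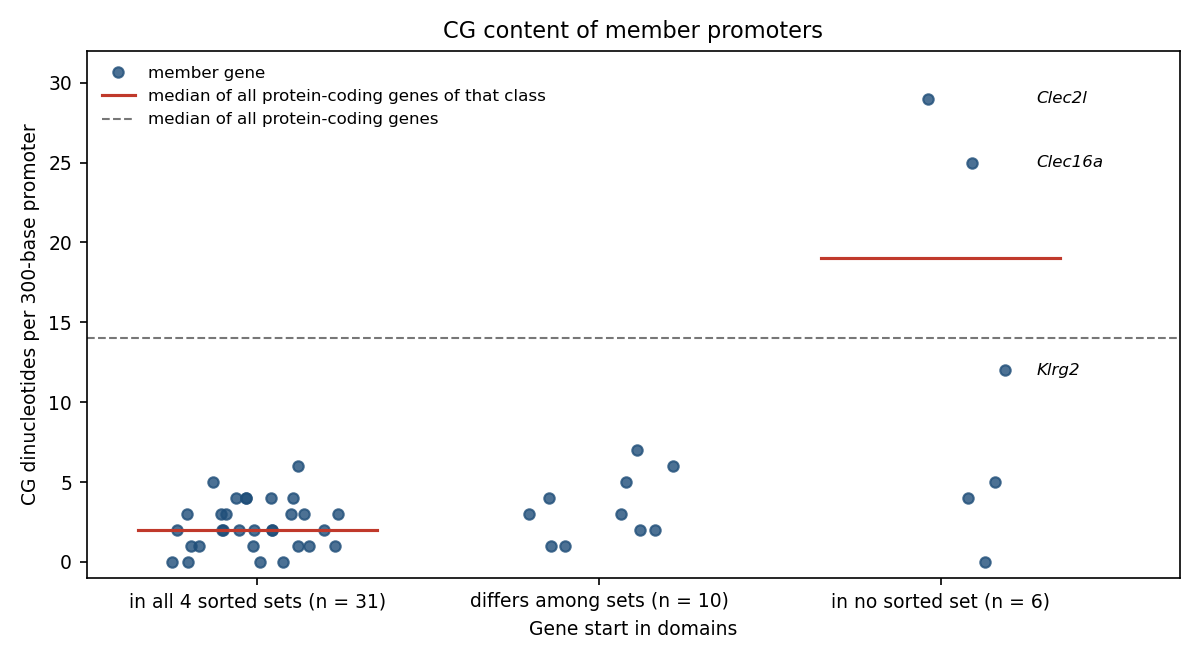
Number of CG dinucleotides in the 300-base promoter of each matched member (points, spread sideways for visibility), by whether its start was in all 4 sorted sets, differed or was in none. Red lines are medians of all protein-coding genes inside in all 4 sets (2) and in none (19), and the dashed line is the median of all genes (14); Clec2l, Clec16a and Klrg2 alone among members reach 10.

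The natural killer gene complex was covered almost end to end. Between the first base of Klrb1a and the last of Klra2, 93.0, 95.8, 93.1 and 96.2% of bases lay in domains of the sorted sets, and 95.0% in the unnamed set. Chromosome 6 as a whole was covered at 55.8, 48.0, 52.6 and 49.7% in the sorted sets, and at 66.9% in the unnamed set. In the sorted sets the low side of the complex had a sharp limit. In the 1 Mb before Klrb1a the share in domains was 6.30, 0.799, 1.30 and 2.30%. In the 1 Mb after Klra2 it was 96.5, 86.5, 96.6 and 93.0%. The unnamed set had 26.3% before and 95.5% after, and left the starts of Klrb1a and Clec2h outside.

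The Ly49 receptors, which bind MHC class I molecules, lay deep inside a domain, apart from Klra2. The stretch from Klra17 to Klra1, with 10 Ly49 genes over 556 kb, lay entirely in a single domain in each sorted set. That domain was 1780, 1755, 1660 and 1825 kb wide. Klra1 lay deepest of all members in each of these sets, 806, 841, 824 and 801 kb from the nearest boundary. Klra2, set apart from the other Ly49 genes, was inside by 114 and 53.9 kb in DMSO and dTAG mESCs and by 164 kb in 2CLC dTAG. In 2CLC DMSO it lay 3.9 kb outside, less than 1 bin, in a gap of 40 kb.

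The same wide domain held the lectin-like receptors of the CD94 and NKG2 group in all 4 sorted sets. Klrk1 (NKG2D, an activating receptor for stress ligands) lay 42.6, 77.6, 72.6 and 37.6 kb inside. Klrd1 (CD94), which pairs with NKG2 chains, lay 10.5, 45.5, 40.5 and 5.5 kb inside. Klrc1 (NKG2A, inhibitory), Klrc2 (NKG2C), Klrc3, Klri1 and Klri2 were inside at depths from 57.1 to 194 kb. These genes share a near boundary, and their depths shifted together. Klre1, whose product pairs with those of Klri1 and Klri2, is the first gene at that boundary. In mESCs it went from 3.3 kb outside with DMSO to 31.7 kb inside with dTAG, and in 2CLCs from 26.7 kb inside to 8.3 kb outside. Its state therefore moved in opposite directions after depletion in the 2 cell states, and its DMSO call in mESCs rests on less than 1 bin. The entry in mESCs was not seen when 50% or any base of the gene body was counted in place of the start.

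The block of Klrb1 and Clec2 genes held the members that entered domains in both cell states. Klrb1 genes encode the NKR-P1 receptors, and Clec2 genes next to them encode their ligands, such as Clec2d for the inhibitory receptor Klrb1b and Clec2i and Clec2g among related molecules. In both sorted DMSO sets a gap of 95 kb, with the same limits at chr6:128751236-128846235, held the starts of Klrb1c (NK1.1, activating) and Klrb1b. Klrb1c lay 38.0 kb and Klrb1b 19.9 kb outside in both DMSO sets. A single domain of 635 kb crossed the gap in mESC dTAG, and the same starts lay 188 and 225 kb inside. In 2CLC dTAG, domains of 205 and 445 kb covered 94.7% of it and met at a break of 5 kb. There Klrb1c was only 2.0 kb inside and Klrb1b 30.1 kb inside. The unnamed set also covered 94.7% of the gap, with Klrb1c 3.0 kb and Klrb1b 29.1 kb inside. If that set stems from unsorted DMSO mESCs, the gap was mostly covered without depletion as well. Over the whole block of 10 members and 577 kb, the covered share went from 83.5 to 100% in mESCs and from 83.5 to 99.1% in 2CLCs. The other 8 members, Klrb1a, Klrb1, Klrb1f, Clec2h, Clec2i, Clec2g, Clec2e and Clec2d, were inside in all 4 sorted sets, and in the unnamed set Klrb1a and Clec2h were outside.

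The myeloid receptors from Clec12a to Clec1a went the other way in 2CLCs. This block of 5 genes and 109 kb was covered at 90.9, 95.4 and 90.9% in the first 3 sorted sets and at 40.5% in 2CLC dTAG. A gap of 65 kb at chr6:129361236-129426235 was found in 2CLC dTAG alone among the 5 sets. It held the starts of Clec12b, an inhibitory receptor of myeloid cells, Clec1b (CLEC-2, the podoplanin receptor of platelets) and Clec9a (DNGR-1, a dendritic cell receptor for dead cells). They lay 24.6, 28.9 and 17.4 kb outside. In 2CLC DMSO they were 14.6, 26.1 and 37.6 kb inside a domain of 165 kb. Clec1b and Clec9a were inside by only 3.9 and 2.6 kb in mESC dTAG, beside a break of 5 kb. Clec12a and Clec1a, at the ends of the block, were inside in all 5 sets.

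**Figure D3:**
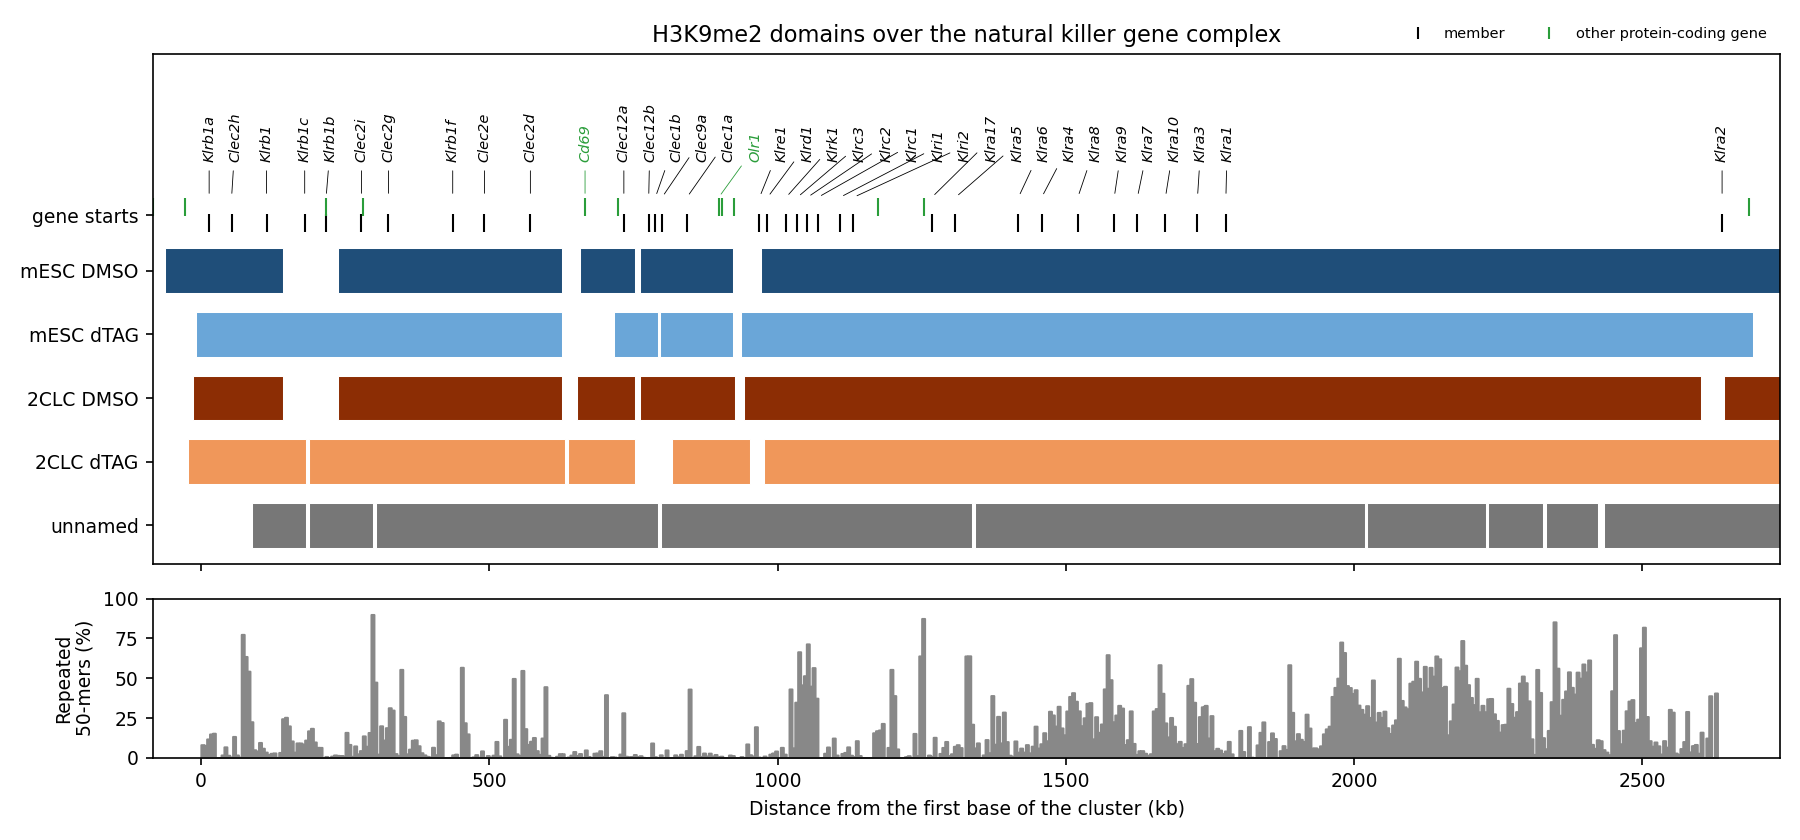
Domains (bars) of the 5 sets over the cluster from Klrb1a to Klra2, by distance in kb from its first base, with gene starts above (members black, other protein-coding genes green, those named being members, Cd69 and Olr1) and, below, the percent of 50-mers found more than once on the chromosome, within the cluster. The gap of 95 kb over Klrb1c and Klrb1b is in the sorted DMSO sets only and is mostly covered in the unnamed set. The gap of 65 kb over Clec12b, Clec1b and Clec9a is in 2CLC dTAG only.

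Boundaries within the complex were shared by the DMSO sets more than by the dTAG sets. Of 8 boundaries in mESC DMSO, 5 were at the same position in 2CLC DMSO and 7 were within 1 bin. Of 6 in mESC dTAG, 0 were at the same position in 2CLC dTAG and 1 was within 1 bin. Between DMSO and dTAG, 2 of 8 positions were shared in mESCs and 1 of 9 in 2CLCs. Shared boundaries were not counted outside the complex, so these counts are not shown to be particular to it. Chromosome 6 as a whole held 265, 390, 231 and 496 domains in the sorted sets. Among other genes of the complex, Olr1, a scavenger receptor of the same fold, was inside in all 5 sets. Cd69, an early activation antigen, was outside in mESC dTAG only.

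Sequence copied within the chromosome bears on how reads are placed, as reads matching several places equally were assigned by the aligner to one of them. In the complex 17.6% of 50-mers had a further copy on that strand of the chromosome, against 7.41% of chromosome 6. The stretch from Klra17 to Klra2 had 24.4%, the Klrb1 and Clec2 block 11.8%, and the block from Clec12a to Clec1a 1.36%. The gap over Klrb1c and Klrb1b had 9.25%. Klrc gene bodies had a median of 46.0%, while Klra bodies ranged from 4.38 to 47.4% around a median of 18.8%. Both alleles of the hybrid line were read against the C57BL/6J reference. The part of repeated sequence and of strain differences in these results was not tested.

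The Klrg1 to Clec4e cluster was split around a stretch free of domains at gene starts. Its covered share was 40.6, 41.1, 37.2 and 39.2%. Between Klrg1 and Clec4a1 lay 639 kb with 13 other protein-coding genes, including the pluripotency genes Nanog, Dppa3 and Gdf3. None of the 13 starts was in a domain in any of the 5 sets, and 5.32, 6.88, 4.79 and 4.01% of those bases were covered in the sorted sets. On the far side, the 9 Clec4 genes over 368 kb were covered at 100, 98.6, 91.9 and 100%. They include Clec4a2 (DCIR, inhibitory) and the pattern receptors Clec4d (MCL) and Clec4e (Mincle), which were inside in all 5 sets.

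In this cluster the members that changed were at the edges of domains or beside a small gap. Klrg1, a receptor for cadherins on effector lymphocytes, was 8.4 and 18.4 kb inside in mESC DMSO and dTAG. It was 1.6 and 6.6 kb outside in 2CLC DMSO and dTAG. By its start, depletion thus did not change the state of Klrg1 in either cell state, and the DMSO call in 2CLCs rests on less than 1 bin. With 50% of the gene body counted, Klrg1 left in 2CLCs, where 86.7% of the body was covered in DMSO and 46.0% in dTAG. It entered in mESCs when the whole window of 10 kb either side had to be covered. Clec4n (Dectin-2, a receptor for fungal mannans) was outside by 6.4 kb in 2CLC DMSO, between domains of 315 and 1160 kb. In 2CLC dTAG a single domain of 1360 kb covered it and the other 8 Clec4 genes. Clec4n was also inside in both mESC sets and 7.4 kb outside in the unnamed set. Its entry in 2CLCs was not seen when 50% or any base of the gene body was counted.

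**Figure D4:**
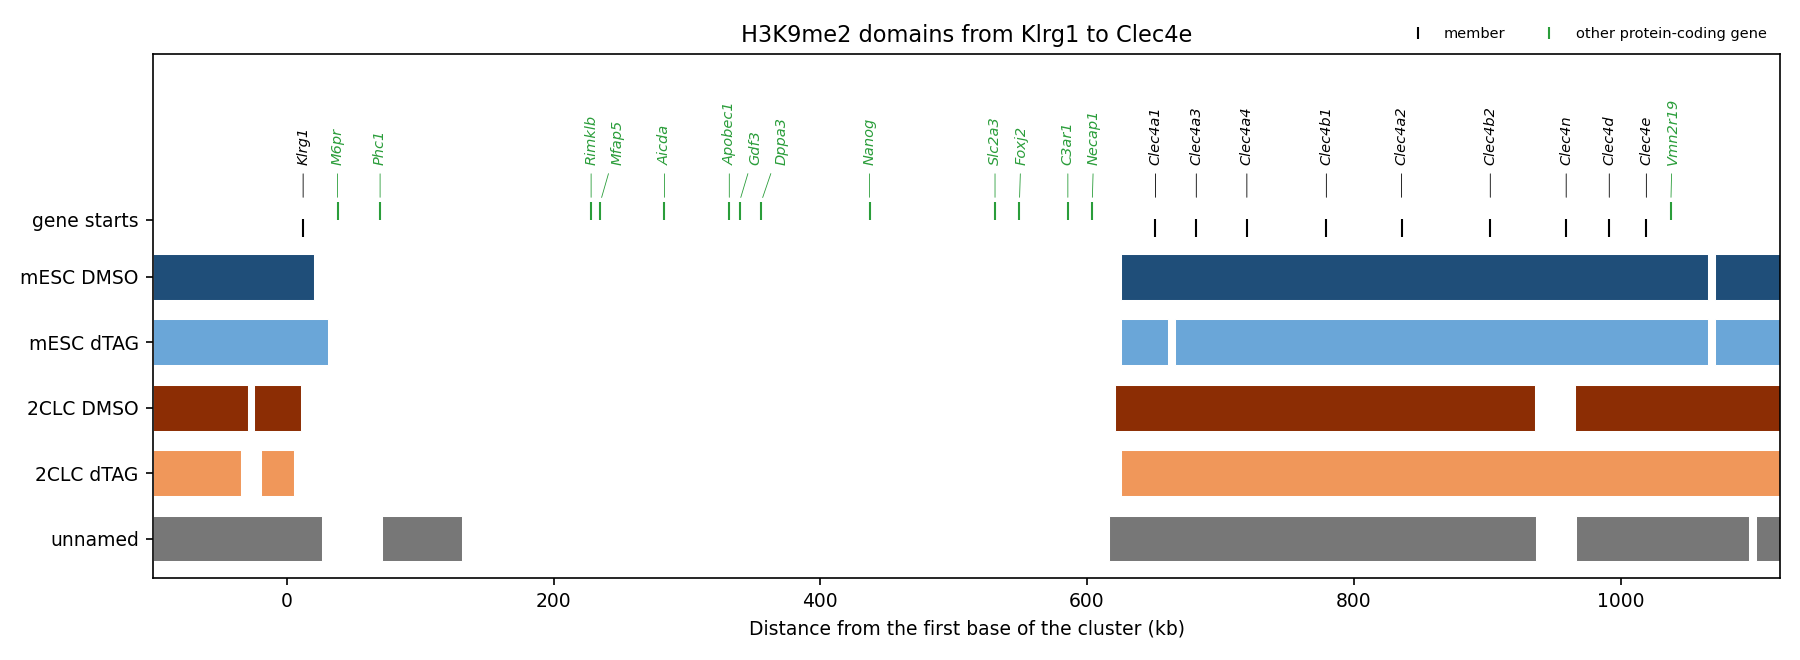
Domains (bars) of the 5 sets from Klrg1 to Clec4e, by distance in kb from the first base of the cluster, with gene starts above (members black, other protein-coding genes green). All 9 Clec4 genes lie in domains except Clec4n in 2CLC DMSO and the unnamed set, and the 13 starts between Klrg1 and Clec4a1 lie in none.

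After EHMT2 depletion in mESCs, 2 member starts left domains and 3 entered. Those that left were Clec14a and Clec5a, 4.35% of the 46 inside in DMSO, where 22.7% of all starts inside left. Those that entered were Klrb1c, Klrb1b and Klre1, 30.0% of the 10 outside in DMSO, where 8.14% of all starts outside entered. In 2CLCs, 5 left (Clec5a, Clec12b, Clec1b, Clec9a and Klre1), 12.2% of 41, against 18.3% of all. A further 8 entered (Clec14a, Clec4n, Klrb1c, Klrb1b, Klra2, Clec4g, Clec3a and Clec3b), 53.3% of 15, against 9.80%. Of these, Clec14a, Clec4n, Klra2, Clec4g and Clec3a were inside in mESC DMSO. Their entries thus also rest on the single 2CLC DMSO list, where they lay 0.2 to 6.4 kb outside. The 2 entries common to both cell states were neighbours in the same gap, and 2.72% of all genes entered in both. Clec5a was the 1 member that left in both, as did 1.63% of all genes. In mESCs it no longer left with gaps of up to 10 kb joined or with any base of the gene body counted.

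Several of these changes rested on small distances. Of the 14 members whose state differed, 5 were outside by less than 5 kb wherever they were outside (Clec14a, Clec5a, Klra2, Clec4g and Clec3a). Another 3 (Klrb1c, Clec1b and Clec9a) had an inside call with less than 5 kb to a boundary, as did Clec3a. Klrg1 and Klre1 also had 1 outside call within 5 kb of a boundary, so a boundary moved by 1 bin could change a call for 10 of the 14.

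Between cell states in DMSO, 6 members were inside in mESCs and outside in 2CLCs. These were Clec14a, Klrg1, Clec4n, Klra2, Clec4g and Clec3a, 13.0% of 46, against 13.9% of all starts. Only Klre1 entered, 10.0% of 10, against 5.13%. In dTAG, Klrg1, Clec12b, Clec1b, Clec9a and Klre1 were inside in mESCs and outside in 2CLCs, 10.6% of 47 against 14.1%, while Clec14a and Clec3b went the other way, 22.2% of 9 against 8.16%. Each sorted set is used both between treatments and between cell states, so these comparisons are not separate pieces of evidence.

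Of the 10 members that stood alone, 5 changed state among the sorted sets. Clec5a (MDL-1, which signals through DAP12 in myeloid cells) lay 30.5 kb inside a domain of 130 kb in mESC DMSO and 99.5 kb inside one of 200 kb in 2CLC DMSO. It was 0.5 kb outside in both dTAG sets. Clec14a, an endothelial receptor, went from 62.2 kb inside a domain of 540 kb to 2.8 kb outside in mESCs after depletion. In 2CLCs it went from 2.2 kb outside to 27.2 kb inside a domain of 180 kb. Its state thus moved in opposite directions in the 2 cell states, with both outside calls under 1 bin. The entry in 2CLCs was not seen with gaps of up to 10 kb joined, or when 50% or any base of the gene body was counted.

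The remaining changes among these genes were seen in 2CLCs. Clec4g (LSECtin of liver sinusoidal endothelium) was 7.6 and 32.6 kb inside in mESC DMSO and dTAG, 2.4 kb outside in 2CLC DMSO and 32.6 kb inside in 2CLC dTAG. Clec3a, known from cartilage, was 19.8, 4.8 and 19.8 kb inside in mESC DMSO, mESC dTAG and 2CLC dTAG, and 0.2 kb outside in 2CLC DMSO. Clec3b (tetranectin, which binds plasminogen) was 10.5, 30.5 and 160.5 kb outside in mESC DMSO, mESC dTAG and 2CLC DMSO. In 2CLC dTAG a domain of 45 kb covered it, 10.5 kb from its edge. That entry was not seen when only domains of at least 50 kb were kept. Of these 3, Clec3b alone was more than 1 bin from the nearest boundary in every sorted set.

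Clec10a, a galactose-binding lectin of macrophages, was the only member that stood alone and was inside in all 4 sorted sets. Its domains were narrow, at 20, 25, 15 and 25 kb, and the unnamed set had none within 924 kb. The 6 members inside in none of the 5 sets were Klrg2, Clec2l, Clec4f, Clec11a, Clec16a and Clec18a. Clec16a acts in autophagy and Clec11a is a secreted growth factor, so neither is a killer cell type receptor, whereas Clec4f is a Kupffer cell receptor. Clec11a came closest to a domain, 7.3 kb away in 2CLC dTAG and 6.3 kb in the unnamed set.

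Genes that work with these receptors were counted from fixed lists, beside 22.3, 23.6, 23.2 and 26.5% of all starts inside and 65.8% inside in no sorted set. All 11 adaptors and signalling genes, including Hcst (DAP10), Tyrobp (DAP12), Fcer1g, Syk and Card9, were outside in all 4 sorted sets. Of 11 ligand genes, 2, 3, 2 and 4 were inside (18.2, 27.3, 18.2 and 36.4%), near the share of all starts. Among them H60c, a ligand of NKG2D, was inside in all 4, and H2-T23 (Qa-1, the ligand of CD94 with NKG2A) was inside in both dTAG sets only. Of 48 other genes of the C-type lectin fold, 22, 19, 21 and 21 were inside. Of 15 other natural killer cell genes, 7, 7, 5 and 6 were inside. Gzmb, a cytotoxic granule protease, and Ncr1, an activating receptor, were inside in all 4, and the transcription factor genes Eomes and Tbx21 were inside in none.

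Neighbouring genes and another clustered family give a scale for these counts. Of 22 other protein-coding genes that start within the member clusters, 7, 7, 8 and 9 were inside, and the 13 between Klrg1 and Clec4a1 made up most or all of those outside. Of 487 within 1 Mb outside the clusters, 14.4, 15.0, 15.8 and 19.3% were inside. Defensin genes, 64 antimicrobial peptide genes that also sit in clusters, were inside at 75.0, 71.9, 73.4 and 70.3%. A high share was thus not particular to the receptors.

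**Figure D5:**
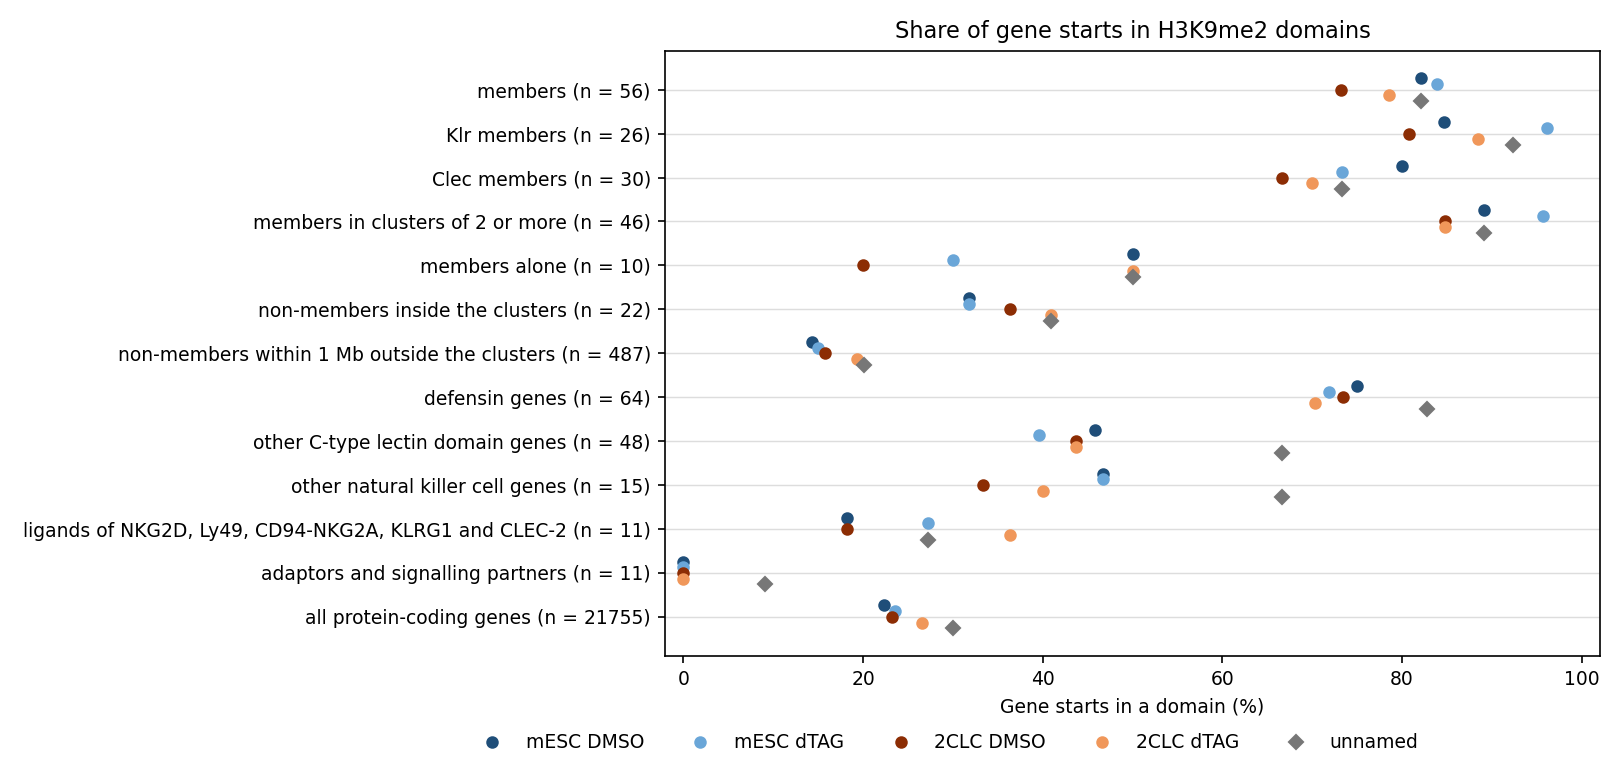
Percent of gene starts inside H3K9me2 domains for members, their subsets, comparison groups and fixed gene lists, with 1 marker per domain set and the number of genes in parentheses. Members and defensin genes lie above 70% in every sorted set, and the adaptors lie at 0 in the 4 sorted sets.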

How the data were processed

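The files deposited by the authors hold the chromosome, start and end of H3K9me2 domains in mm10 with a score of 0 throughout, and no signal values. Per the labels and the methods, reads were trimmed, aligned with STAR 2.7.10 in a mode that places reads with several matches, and freed of duplicates with Picard 2.26.0 and of regions of artificially high signal. Coverage was scaled to genome content (deepTools 3.5.1) and averaged in overlapping windows on a step of 5 kb. Domains were seeded at bins whose log2 ratio over input was above a high percentile, and extended until it fell below a low percentile. Pooling of replicates ahead of the calls, and the use of common or separate limits, are not given in the sources used here. Domains therefore give positions and not levels of the mark, which the authors report as lower across the genome after depletion.

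Sets were assigned to the sorted conditions by their names. Gene starts came from GENCODE M21 (21755 protein-coding genes), promoters from RefSeq GRCm38.p6. Positions were computed with Python 3.11.15, numpy 2.4.6 and pandas 2.3.3, and promoter identity with global alignment in Biopython 1.88 (match 1, mismatch -1, gap opening -3, extension -1). The code that places starts was checked on simulated domains with known positions. Members and lists were chosen with earlier results of these data known, and Cd244 of the natural killer list was not matched. Genes named were those whose state differed, those at cluster ends, a list of well-known receptors, and the deepest and nearest to a boundary in each set. Olr1, Cd69 and the genes named from the lists of partners were picked after their values were seen. Alternatives covered the width, joining and shortening of domains, the part of the gene tested, the gap between clusters, Klr or Clec genes alone, and the RefSeq start, the last chosen after seeing the data.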

Additional observations from a re-analysis of the deposited data

Results flagged for a closer look

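Clec14a and Klre1 changed state in opposite directions in the 2 cell states after EHMT2 depletion. The start of Clec14a left its domain in mESCs, with a signed distance to the boundary of -2.8 kb in dTAG (negative values are outside), and entered one in 2CLCs, at 27.2 kb. The start of Klre1 entered in mESCs, at 31.7 kb, and left in 2CLCs, at -8.3 kb. Each condition is a single set, and the difference between cell states was not tested. With gaps of up to 10 kb joined, Clec14a no longer entered in 2CLCs. With 50% or any base of the gene body counted, Clec14a no longer entered in 2CLCs and Klre1 no longer entered in mESCs, so neither moved in opposite directions. The outside calls of Clec14a are less than 1 bin of 5 kb from a boundary, as is that of Klre1 in mESC DMSO.

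The unnamed set belongs to no group, and its values are only set beside the others. It had domains 95.0 kb wide over Klrb1c, 110 kb over Klrb1b and 40.0 kb over Clec3b, whose starts were outside in both sorted DMSO sets. If it stems from unsorted DMSO mESCs, these starts were also inside without depletion.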

How the results depend on the processing

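Over 21 results and 150 alternatives, 124 values stayed within the limit set for a change and 26 moved. That limit did not treat all values alike, so the tally is not a measure of stability. With a gap limit of 2 Mb the Klrg2 to Clec2l cluster held 3 members, and its coverage in mESC DMSO went from 0 to 25.5%. This was labelled as unchanged. For starts leaving in mESCs, 3 in place of 2 was labelled as unchanged and 1 as moved. In mESCs, 2 starts left domains as reported, 1 when gaps of up to 10 kb were joined, 5 when domains were shortened by 5 kb at both ends, 1 when any base of the gene counted and 6 when the whole window of 10 kb either side had to be covered. With that window 5 entered in mESCs in place of 3. Klrb1b entered in both cell states under every alternative except Clec genes only and the omission of the largest cluster, which leave it out. Klrb1c no longer entered in 2CLCs with shortened domains or the window. Clec5a no longer left in mESCs, and so in both cell states, with gaps joined or with any base of the gene counted.

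With Klr genes only, the share inside was 96.2% in mESC dTAG, 88.5% in 2CLC dTAG and 92.3% in the unnamed set, 0 left in mESCs, and in 2CLCs 1 left and 3 entered. With Clec genes only, 0 entered in mESCs and 5 in 2CLCs. Without the largest cluster, shares were 68.2, 59.1, 45.5 and 63.6% in mESC DMSO, mESC dTAG, 2CLC DMSO and 2CLC dTAG, and 63.6% in the unnamed set. In that case 0 entered in mESCs, and in 2CLCs 1 left and 5 entered. With a gap limit of 0.5 Mb, Klra2 dropped from the largest cluster, whose coverage in mESC DMSO was 89.6%, and Klrg1 from the other, whose coverage was 100.0, 98.6, 91.9 and 100.0% in the sorted sets. These alternatives change which genes are counted. No paired analysis was possible because each condition is a single set with no replicate values, and for the same reason no replicate could be left out. The depth behind the domains is unknown.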
